A study of Mus musculus with 18 samples.

Results

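Untreated leukemia cells were compared with untreated normal blood progenitors of the same mouse model, gene by gene. The AML cells were GFP+ acute myeloid leukemia cells with MLL-AF9, a fusion oncogene, sorted from leukemic mice. The LSK cells were normal Lin-ckit+sca1+ marrow cells, the lineage-negative fraction that holds the hematopoietic stem cells and the early multipotent progenitors. The members are the 3 arrays titled AML Control and the 3 titled LSK Control, 6 of the 18 arrays of the series, and the remaining 12 arrays held cells given Dox or a compound cocktail. Per the labels both cell types came from 4F mice, which carry Dox-inducible Oct4, Sox2, Klf4 and c-Myc, so the control arrays of both groups carry these transgenes without the inducer. The labels place the treatments at 24 h in vitro but do not say whether the controls were kept in culture for that time or lysed before it, how MLL-AF9 was introduced, or how old the mice were. The 3 arrays of a group are called biological repeats. The labels do not tie them to different mice or cultures, and the p-values therefore reflect only how much these samples varied, some of which may be technical.

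MLL (gene symbol Kmt2a) is a histone methyltransferase that keeps Hox genes active in stem and progenitor cells. MLL-AF9 joins its front part to AF9 (Mllt3), which recruits the transcription elongation machinery, and the fusion is known to hold the Hoxa genes and their partner Meis1 on in cells that would otherwise lose them as they mature. LSK cells sit at the top of the blood hierarchy, from which the myeloid, lymphoid, erythroid and megakaryocyte lineages branch.

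Values are log2 expression of probe sets after RMA, as the authors deposited them, with 1 probe set for each of 21201 autosomal genes. Every difference below is AML minus LSK on the log2 scale, so 1 unit is 2-fold and a negative value means a higher level in LSK cells. A gene was tested if it lay above the 40th percentile of its array, called the detection level here, on at least 3 of the 6 arrays, which left 14404 genes. It is called when limma's adjusted p is under 0.05 and the difference is at least 2-fold. Where a group lay under the detection level on all 3 arrays the size is given as "at least", with that group set to the level. Array medians ran from 2.66 to 2.68, and arrays correlated at 0.986 to 0.989 within a group and at 0.964 to 0.966 between the groups across all probe sets. Levels of different genes are not comparable on this scale, because each probe set has its own brightness.

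A total of 942 genes were called, which is 6.54% of those tested. Of these, 379 (2.63%) were higher in AML cells and 563 (3.91%) were higher in LSK cells. In all 942 the 3 arrays of one group lay wholly beyond the 3 of the other, as they did in 46.3% of all genes tested. A lack of overlap thus came with every call and adds nothing to it. The differences toward LSK cells were also the larger ones. At least 8-fold differences numbered 24 toward AML and 61 toward LSK, and at least 16-fold differences 4 and 22. With no rule on size, 4778 genes (33.2%) had an adjusted p under 0.05, 2513 (17.4%) higher in AML and 2265 (15.7%) higher in LSK, so the excess toward LSK cells was seen among the large differences and not among the small ones. The median difference of all genes tested was 0.01. Of the 340 genes named by rule, 206 were called. Their standard errors ran from 0.07 to 0.31, and their adjusted p reached 0.0069 at most.

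**Figure D1:**
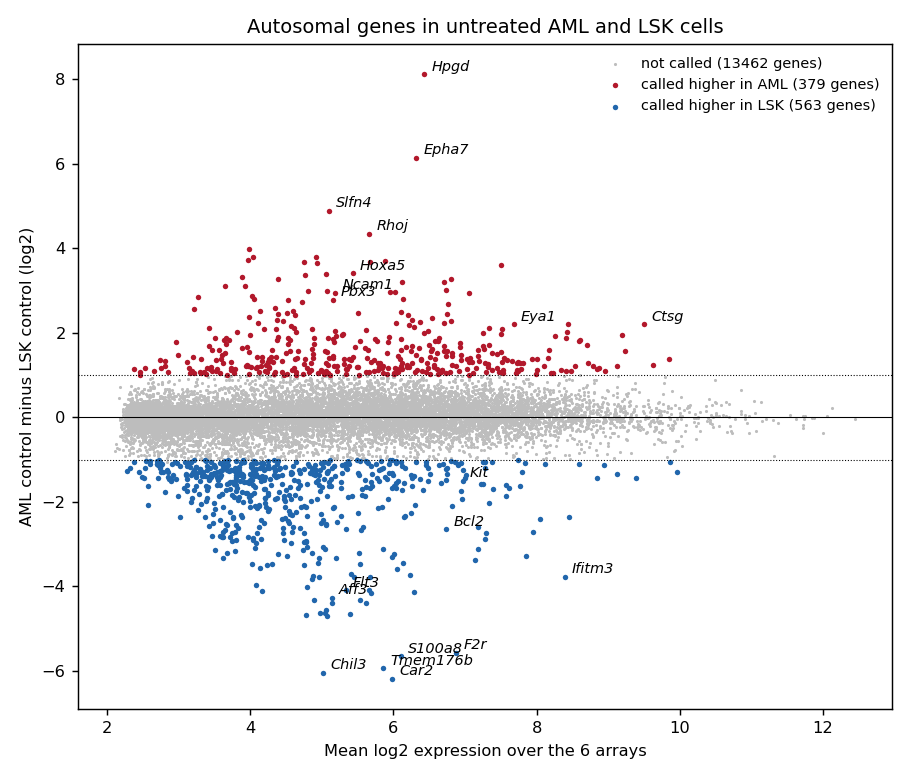
Each point is 1 of the 14404 autosomal genes tested, with its mean log2 expression over the 6 arrays on the x axis and its difference, AML control minus LSK control (log2), on the y axis. Red points are the 379 genes called higher in AML, blue points the 563 called higher in LSK, grey points are not called, and the dotted lines mark a 2-fold difference; blue points reach below -4 in larger number than red points reach above 4.

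The sort markers came first. Kit, the stem cell factor receptor on which LSK cells are gated, read 6.22, 6.16 and 6.28 on the AML arrays and 7.66, 7.76 and 7.72 on the LSK arrays, a difference of -1.49 (SE 0.08, limma adjusted p = 3.87e-06). The groups did not overlap, and Kit stood above the detection level on all 6 arrays. Ly6a, which encodes Sca1, had no probe set of its own and is not analysed here. A list of lineage antigens was chosen here, not taken from the labels, and includes a pan-leukocyte gene. Of its members 12 had a probe set, of which 6 lay under the detection level on all AML arrays and 3 on all LSK arrays. The 0 calls with limma among the 6 tested therefore say little about the sort, and 1 gene was past the adjusted p alone. That gene was Ptprc, the pan-leukocyte phosphatase CD45, at 0.66. Cd3e of T cells differed by 0.03 and Itgam, the myeloid integrin CD11b, by -0.13, both chosen after the values were seen and neither past the test.

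The groups also differed in a sex-linked transcript. The X-inactivation RNA Xist read 2.55, 2.63 and 2.38 on the AML arrays and 9.28, 9.56 and 9.54 on the LSK arrays. The Y-linked genes Eif2s3y, Kdm5d and Uty stood at or below 2.27 on all 6 arrays, under the detection level in both groups. What lies behind the Xist difference, the mice's sex or the state of the X chromosome, was not tested. It cannot be told apart from the cell type here. The comparison was set over autosomal genes, so genes on X, Y and the mitochondrial genome were not tested.

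The levels of the 4 reprogramming factors, which the transgenes of both groups also encode, came next. Pou5f1, which encodes Oct4, differed by -0.07 and Sox2 by 0.21, and neither passed the test. Pou5f1 averaged 2.91 on the AML arrays and 2.98 on the LSK arrays, and Sox2 2.72 and 2.51. The detection level ran from 2.34 to 2.36 over the arrays, so both genes stood near background in both groups. Myc read 8.63, 8.67 and 8.70 on the AML arrays and 9.19, 9.41 and 9.41 on the LSK arrays, and its difference of -0.67 passed the adjusted p but not the 2-fold rule. Klf4 did the same at -0.56. The genes joined in the fusion were Kmt2a at -0.18 and Mllt3 at -0.23, neither of them called. The sources used here do not say which part of these genes the probes cover, so fusion, transgene and natural transcripts cannot be told apart.

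The largest difference of all was in Hpgd, which encodes the dehydrogenase that inactivates prostaglandins. Hpgd read 10.58, 10.35 and 10.54 on the AML arrays and 2.93, 2.13 and 2.06 on the LSK arrays, a difference of 8.12 (SE 0.21, limma adjusted p = 1.06e-07). It was bright on every AML array and near the detection level on every LSK array. Epha7, an ephrin receptor tyrosine kinase, followed with 9.33, 9.37 and 9.46 against 3.39, 3.26 and 3.10, a difference of 6.14 (SE 0.10). Slfn4, a Schlafen family gene of myeloid cells, differed by 4.88 and Rhoj, a small GTPase, by 4.34. As in all called genes, the groups of these 4 did not overlap. The next were Plekhh2 (at least 3.47), the axonemal dynein Dnah8 (3.67), the growth factor Clec11a (3.67), the ErbB4 ligand Nrg4 (3.65), the sphingomyelin synthase Sgms2 (3.60), Hoxa5 (3.41), Tmem156 (3.38), the cysteine-forming enzyme Cth (3.36), the lipid transporter family member Abca13 (3.28), Fnbp1l (3.28) and the Ikaros family factor Ikzf2, Helios (3.20).

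Toward LSK cells the largest difference was in Car2, which encodes carbonic anhydrase 2. Car2 read 3.12, 2.94 and 2.61 on the AML arrays and 9.12, 9.03 and 9.05 on the LSK arrays, a difference of -6.18 (SE 0.13, limma adjusted p = 5.63e-08). Every LSK array was bright and every AML array dim. Chil3, a chitinase-like protein of neutrophils and macrophages, read 2.05, 2.07 and 1.87 against 8.09, 8.14 and 7.91, which is higher in LSK by at least 5.70 on the log2 scale, since all 3 AML arrays lay under the detection level. Tmem176b, a membrane protein of immature dendritic cells, differed by -5.94, the calcium-binding protein S100a8 by -5.66, and F2r, the thrombin receptor PAR-1, by -5.57. The groups of these 5 genes did not overlap, as in all called genes. The next were the receptor Gpr171 (-4.71), Myct1 (-4.68), the neutrophil granule protein Ngp (-4.66), the adhesion receptor Adgrg7 (-4.63), the cartilage matrix protein Chad (-4.63), the fatty acid desaturase Fads2 (-4.55), the RNA uridylyltransferase Tut4 (-4.39), the myosin light chain Myl10 (-4.39), annexin Anxa1 (-4.33) and the interleukin-1 receptor Il1r1 (-4.31).

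The promoters of the leading genes are shown. These genes were bright in the cell type where they lay higher and dim in the other. Whether the sequence around the start has a part in these differences was not tested. Each promoter runs from 250 bases before to 50 after the start, 5′ to 3′ on the gene's strand, from RefSeq on GRCm38.p6. Capitals mark matches to any of 11 short motifs spelled out in the next paragraph. For the 4 genes highest in AML cells the windows were chr8:56294302-56294601 (plus strand) for Hpgd, chr4:28812881-28813180 (plus) for Epha7, chr11:83174936-83175235 (plus) for Slfn4 and chr12:75308063-75308362 (plus) for Rhoj. For the LSK side they are shown for the genes ranked after Car2, which had no entry in the promoter table, and were chr3:106167515-106167814 (minus) for Chil3, chr6:48841088-48841387 (minus) for Tmem176b, chr3:90668821-90669120 (plus) for S100a8 and chr13:95618417-95618716 (minus) for F2r. The table lists 2 starts for Epha7 and 3 for Tmem176b, of which the first is shown.
Hpgd: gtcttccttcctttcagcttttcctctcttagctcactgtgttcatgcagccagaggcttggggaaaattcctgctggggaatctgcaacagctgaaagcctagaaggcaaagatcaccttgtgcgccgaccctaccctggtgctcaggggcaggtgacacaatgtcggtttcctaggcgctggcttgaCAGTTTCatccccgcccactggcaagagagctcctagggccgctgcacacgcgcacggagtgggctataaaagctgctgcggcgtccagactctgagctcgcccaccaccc
Epha7: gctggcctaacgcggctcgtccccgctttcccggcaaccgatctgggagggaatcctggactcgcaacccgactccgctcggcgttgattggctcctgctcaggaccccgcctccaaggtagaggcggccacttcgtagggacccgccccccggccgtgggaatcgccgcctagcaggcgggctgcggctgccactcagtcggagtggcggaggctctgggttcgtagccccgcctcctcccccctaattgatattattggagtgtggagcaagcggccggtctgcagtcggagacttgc
Slfn4: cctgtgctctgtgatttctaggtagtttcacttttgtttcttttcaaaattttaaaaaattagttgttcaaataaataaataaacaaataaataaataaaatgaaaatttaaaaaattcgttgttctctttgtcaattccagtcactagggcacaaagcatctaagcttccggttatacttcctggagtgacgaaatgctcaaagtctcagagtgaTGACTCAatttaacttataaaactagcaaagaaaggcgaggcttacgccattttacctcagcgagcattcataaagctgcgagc
Rhoj: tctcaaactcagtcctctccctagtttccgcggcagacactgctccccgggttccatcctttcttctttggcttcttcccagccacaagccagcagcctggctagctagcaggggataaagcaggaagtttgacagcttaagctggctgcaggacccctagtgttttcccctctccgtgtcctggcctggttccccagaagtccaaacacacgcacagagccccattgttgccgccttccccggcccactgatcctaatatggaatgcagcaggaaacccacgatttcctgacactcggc
Chil3: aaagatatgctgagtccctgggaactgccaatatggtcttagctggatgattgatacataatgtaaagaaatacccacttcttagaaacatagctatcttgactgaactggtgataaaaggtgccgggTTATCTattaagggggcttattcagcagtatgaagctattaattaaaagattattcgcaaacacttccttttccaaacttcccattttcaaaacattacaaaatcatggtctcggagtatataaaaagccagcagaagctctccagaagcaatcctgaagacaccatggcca
Tmem176b: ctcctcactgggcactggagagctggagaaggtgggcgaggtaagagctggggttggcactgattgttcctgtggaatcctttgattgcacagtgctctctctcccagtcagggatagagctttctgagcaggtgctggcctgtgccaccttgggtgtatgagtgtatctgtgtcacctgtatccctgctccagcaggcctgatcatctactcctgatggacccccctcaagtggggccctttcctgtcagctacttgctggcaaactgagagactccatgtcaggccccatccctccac
S100a8: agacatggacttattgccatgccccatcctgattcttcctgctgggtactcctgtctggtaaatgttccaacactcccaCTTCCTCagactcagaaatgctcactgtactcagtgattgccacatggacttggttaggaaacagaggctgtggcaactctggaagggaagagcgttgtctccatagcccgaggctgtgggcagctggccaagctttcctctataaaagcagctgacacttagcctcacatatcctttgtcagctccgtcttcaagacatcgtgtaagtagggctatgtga
F2r: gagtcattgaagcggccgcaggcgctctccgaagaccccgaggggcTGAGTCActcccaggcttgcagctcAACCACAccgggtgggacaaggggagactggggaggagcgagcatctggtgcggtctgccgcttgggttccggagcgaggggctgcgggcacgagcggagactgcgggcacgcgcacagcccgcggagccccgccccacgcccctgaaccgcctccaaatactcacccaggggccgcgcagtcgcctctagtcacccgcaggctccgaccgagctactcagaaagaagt

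The motifs were searched on both strands as exact letters, and a match is a description of the letters only. They were AGATAA and the overlapping GATAAG for GATA factors, GAGGAAG (PU.1), TTGCAAT and TTGCGCA (C/EBP), TGTGGTT (Runx), TGACTCA (AP-1), CACGTG (the E-box bound by Myc), GAAACTG (interferon response), TGATTTA (Hox with Pbx) and TTGGCGC (E2F). In the windows shown, Hpgd held GAAACTG on the minus strand with its first base at -61 from the start, Slfn4 held TGACTCA at -34, Chil3 held AGATAA on the minus strand at -122, and S100a8 held GAGGAAG on the minus strand at -171. F2r held TGACTCA and TGTGGTT on the minus strand at -204 and -179. The windows of Epha7, Rhoj and Tmem176b held no match. Over all 11239 tested genes with a promoter in the table, 13.5% held the PU.1 letters, against 11.7% of the 266 promoters of genes called higher in AML and 21.3% of the 428 of genes called higher in LSK. The E2F letters stood in 3.86% of all, 3.76% of the AML set and 0.701% of the LSK set, and CACGTG in 9.66%, 7.89% and 4.91%. The Runx letters stood in 3.84%, 5.26% and 6.07% in the same order. AGATAA stood in 7.01%, 6.39% and 8.64%, GATAAG in 5.15%, 5.64% and 4.91%, TTGCAAT in 1.31%, 2.26% and 1.17%, and TTGCGCA in 3.16%, 1.13% and 1.17%. TGACTCA stood in 4.0%, 4.14% and 4.44%, GAAACTG in 5.43%, 4.89% and 6.07%, and TGATTTA in 1.67%, 1.13% and 1.87%. These shares carry no test, and the mean GC content was 60.1% over all, 59.4% in the AML set and 59.4% in the LSK set.

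The Hoxa genes, the textbook targets of MLL fusions, were the list most shifted toward AML cells. All 9 members with a probe set of their own were tested and are given. Of these, 7 were called higher in AML and 0 higher in LSK, and the median was 1.67 against 0.01 over all genes. Hoxa5 read 7.14, 7.18 and 7.08 on the AML arrays and 3.86, 3.51 and 3.81 on the LSK arrays (3.41, SE 0.11, limma adjusted p = 2.62e-07). Hoxa9, the member most closely tied to myeloid transformation, read 7.71, 7.86 and 7.89 against 5.73, 5.34 and 5.71 (2.23, SE 0.12). Both lay above the detection level in LSK cells and were higher on every AML array. Hoxa6 differed by 2.97, Hoxa3 by 2.11, Hoxa2 by 1.67, Hoxa7 by 1.57 and Hoxa10 by 1.33. Hoxa4, in the middle of the same cluster, differed by 0.34 and Hoxa13, at its end, by -0.01, and neither passed the test. Hoxa13 stood near the detection level in both groups, at 2.54 on the AML arrays and 2.545 on the LSK arrays. The Hoxb list had 0 calls among 7 tested members with a median of -0.09, and 1 passed the adjusted p alone. That was Hoxb4, a stem cell self-renewal factor, at -0.50. The Hoxc and Hoxd list had 0 calls among 8 with a median of -0.16, 1 past the adjusted p alone (Hoxd8, -0.27). Over members with a probe set, the Hoxb list averaged 2.58 to 2.68 on the AML arrays and 2.68 to 2.72 on the LSK arrays. The Hoxc and Hoxd list averaged 2.31 to 2.34 and 2.36 to 2.43. Both lists thus averaged near the detection level, 2.34 to 2.36, in both groups, where differences are hard to see.

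Hox proteins bind DNA with Meis, Pbx and Pknox partners. Among 8 tested cofactors 1 was called. Pbx3 read 6.52, 6.56 and 6.57 on the AML arrays and 3.82, 3.79 and 3.71 on the LSK arrays (2.78, SE 0.08, limma adjusted p = 1.3e-07), with no overlap. Meis1 read 8.72, 8.74 and 8.63 against 8.08, 8.23 and 8.30, a difference of 0.50 that passed the adjusted p but not the 2-fold rule, and Pknox1 likewise differed by 0.52. Meis1 was thus bright in both cell types.

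Other genes known as targets of MLL fusions went both ways. Of 12 tested, 4 were called higher in AML and 4 higher in LSK, with a median of 0.21. Gfi1, a zinc finger repressor that acts in granulocyte differentiation, read 7.37, 7.19 and 7.46 against 4.74, 4.96 and 4.87 (2.48, SE 0.10). Eya1, a phosphatase and coactivator, differed by 2.20, the histone demethylase family member Jmjd1c by 2.01 and the cell cycle kinase Cdk6 by 1.25. These 4 were higher on every AML array than on any LSK array. The other 4 were higher in LSK cells. Bcl2, the survival factor, read 5.30, 5.45 and 5.50 on the AML arrays and 7.95, 8.12 and 8.12 on the LSK arrays (-2.65, SE 0.09, limma adjusted p = 4.08e-07). Mef2c, a factor of lymphoid and myeloid progenitors, differed by -2.48, the chromatin organiser Satb1 by -1.36 and the inhibitor of E proteins Id2 by -1.16. Mbnl1 (0.02) was not called.

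**Figure D2:**
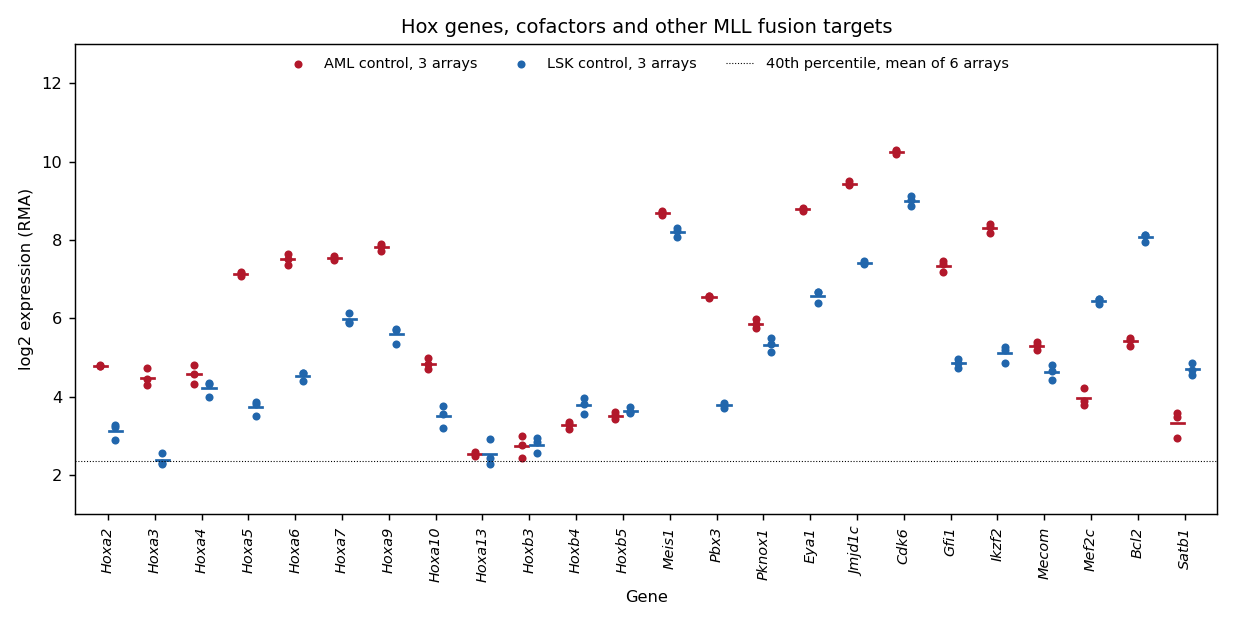
Log2 expression (y axis) of Hox genes, Hox cofactors and other MLL fusion targets (x axis) on the 3 AML control arrays (red) and the 3 LSK control arrays (blue). Each dot is 1 array, the short bars are group means, and the dotted line is the mean detection level of the 6 arrays; Hoxa5 to Hoxa10, Pbx3 and Ikzf2 stand higher in red, Mef2c and Bcl2 higher in blue, and Meis1 is bright in both.

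Among the partners of MLL itself, the largest difference was in Aff3. Of 20 tested members of the MLL complex and the elongation complexes, 1 was called higher in AML and 2 higher in LSK, with a median of 0.11. Aff3, an elongation factor subunit, read 2.86, 3.18 and 2.97 on the AML arrays and 7.20, 7.42 and 7.19 on the LSK arrays (-4.27, SE 0.11, limma adjusted p = 1.06e-07). It was bright on every LSK array and low on every AML array. Mllt6 differed by -1.33 and Ash2l, a core subunit of the methyltransferase complex, by 1.31. Dot1l, the H3K79 methyltransferase that MLL-AF9 recruits, differed by 0.18 and did not pass the test. Ell2 (0.97) missed the 2-fold rule, and was called when AML control replicate 2 (1.01) or LSK control replicate 1 (1.02) was left out.

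Transcripts of stem and progenitor surface proteins lay mainly higher in LSK cells. Of 23 tested, 12 were called higher in LSK and 0 higher in AML, with a median of -1.19. Flt3, the receptor that marks multipotent progenitors, read 3.23, 3.005 and 3.64 on the AML arrays and 7.34, 7.44 and 7.35 on the LSK arrays (-4.09, SE 0.15, limma adjusted p = 5.03e-07). Cd27, a TNF receptor of multipotent progenitors, read 5.82, 5.92 and 5.80 against 8.74, 8.55 and 8.87 (-2.88, SE 0.10). Every LSK array stood above every AML array in both. Cd24a, heat stable antigen, differed by -3.38 and Eng, the TGF-beta coreceptor endoglin, by -3.29. The remaining called members ran from -1.19 (Vldlr) to -2.43 (Emcn, endomucin). Kit is among them, and LSK cells are gated on it. Cd63 (-0.10) and Cd93 (0.71) were not called, and Cd93, a marker of leukemia stem cells, lay higher in AML at adjusted p under 0.05 alone.

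Transcription factors of stem cells split. Of 29 tested, 2 were called higher in AML and 7 higher in LSK, with a median of -0.13. Gfi1b is a repressor that acts in erythroid and megakaryocyte progenitors. It read 3.81, 3.39 and 3.66 on the AML arrays and 7.58, 7.64 and 7.87 on the LSK arrays (-4.07, SE 0.13). Bcl11a, a factor of lymphoid and stem cells, differed by -3.47, Hlf, a factor of dormant stem cells, by -1.48 and Zfpm1, the GATA partner FOG-1, by -1.42. Ikzf2 read 8.32, 8.41 and 8.18 on the AML arrays and 4.87, 5.26 and 5.18 on the LSK arrays (3.20, SE 0.12, limma adjusted p = 5.77e-07). Gfi1 and Gfi1b, paralogs that bind the same motif, thus lay on opposite sides. Lyl1 was called higher in AML at 1.05, but fell under 2-fold without LSK control replicate 2 (0.92) and with quantile normalization (0.99). Fli1 (-0.04) and Myb (0.33) were bright in both cell types and were not called.

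**Figure D3:**
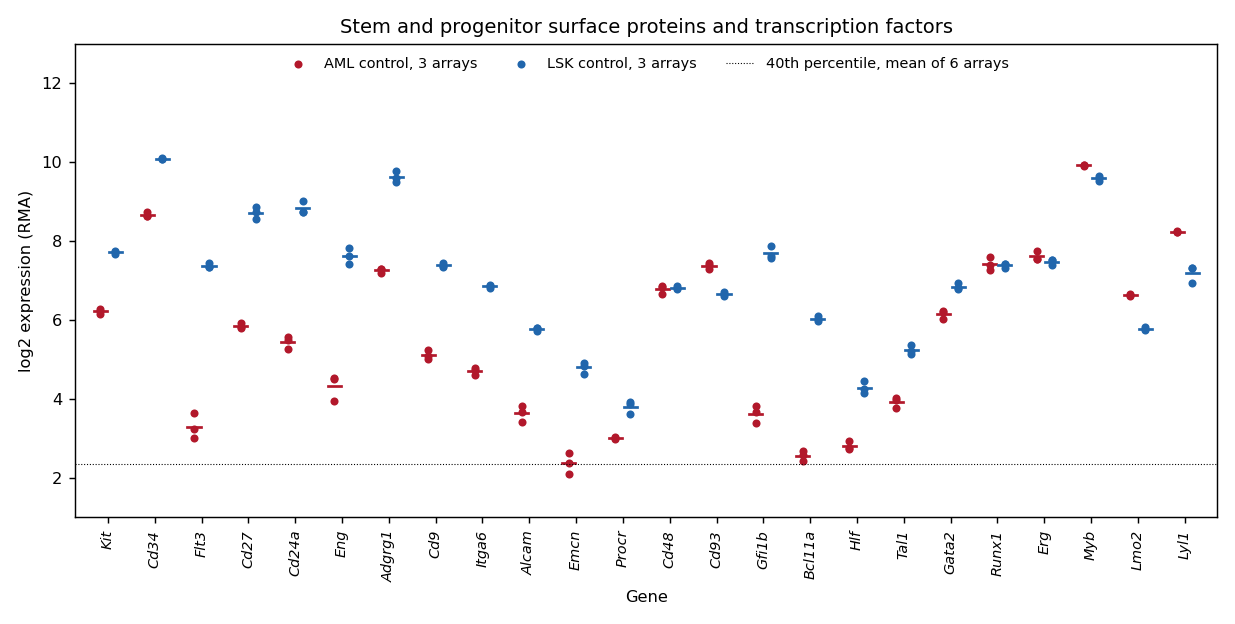
Log2 expression (y axis) of stem and progenitor surface proteins and transcription factors (x axis) on the 3 AML control arrays (red) and the 3 LSK control arrays (blue). Dots are arrays, short bars group means, the dotted line the mean detection level; the surface proteins from Kit to Emcn and the factors Gfi1b, Bcl11a and Hlf stand higher in blue, while Runx1, Erg and Myb lie at like levels.

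Genes known from resting stem cells were called toward LSK cells alone. Of 24 tested, 6 were called higher in LSK and 0 higher in AML, with a median of -0.55. Ifitm3, an interferon-inducible membrane protein, read 6.66, 6.50 and 6.37 on the AML arrays and 10.27, 10.20 and 10.36 on the LSK arrays (-3.77, SE 0.10). Cdkn1a, the CDK inhibitor p21, differed by -1.58 and Ifitm1 by -1.41. Socs2, a feedback inhibitor of cytokine receptors, differed by -1.54 on its brightest probe set, but by -0.93 on the mean of its probe sets. Txnip (-0.70) and Angpt1 (-0.07) were not called. Among 17 tested imprinted genes 2 were called, both higher in LSK: Grb10, an adaptor that damps growth factor signals, at -1.45, and Sgce, whose size was under 2-fold once AML arrays were set to the detection level (-0.97).

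Among cell cycle genes no replication or mitosis effector tested was called. Over all genes tested, 6.54% were called and 33.2% passed the adjusted p with no rule on size. DNA replication genes had 0 calls among 26 tested and a median of 0.02, with 9 past the adjusted p alone. Mitosis genes had 0 calls among 25 and a median of -0.08, with 9 past the adjusted p alone. Pcna, the replication clamp, differed by -0.18, Rrm1 by -0.02, Mki67, the proliferation marker, by 0.05 and Ccna2 by -0.11. Mki67 read 9.69, 9.78 and 9.84 on the AML arrays and 9.72, 9.72 and 9.71 on the LSK arrays, and the groups overlapped. Some regulators above them were called. Ccnd1, cyclin D1, was higher in LSK (-1.37) and Cdk6 higher in AML (1.25), while 17 other G1 regulators tested were not called. Of 7 CDK inhibitors 2 were called, both higher in LSK, Cdkn1a and Cdkn2c (-1.28). DNA repair genes had 0 calls among 17, with 6 past the adjusted p alone.

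Primary granule genes, which encode the proteases and peroxidase of promyelocytes, were on in both cell types. Of 15 tested, 4 were called higher in AML and 3 higher in LSK, with a median of 0.26. Ctsg, cathepsin G, read 10.58, 10.58 and 10.64 on the AML arrays and 8.27, 8.42 and 8.50 on the LSK arrays (2.20, SE 0.09, limma adjusted p = 8.21e-07). Mpo, myeloperoxidase, read 10.54, 10.55 and 10.54 against 8.99, 9.003 and 9.49 (1.38, SE 0.14). Both were bright on all 6 arrays and brighter on every AML array. Hk3, the hexokinase of myeloid cells, differed by 3.19 and Serpinb1a, an inhibitor of these proteases, by 1.28. Ctsc, which activates the proteases, was higher in LSK (-1.61), as were Nkg7 (-1.23) and Cst7 (-1.05). The other members were not called, among them Elane, Prtn3 and Prss57. Calr (0.64) and Srgn (0.26), the brightest of these, passed the adjusted p but not the 2-fold rule.

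Secondary granule and neutrophil genes, which come on later in granulocyte maturation, lay the other way. Of 20 tested, 10 were called higher in LSK and 1 higher in AML, with a median of -0.999. S100a8 read 3.40, 3.19 and 3.24 on the AML arrays and 8.89, 8.97 and 8.93 on the LSK arrays (-5.66, SE 0.09). Ngp read 2.87, 3.28 and 3.07 against 7.55, 7.77 and 7.88 (-4.66, SE 0.13). The LSK arrays were high in both and the AML arrays low, without overlap. S100a9, the partner of S100a8, was higher in LSK by at least 3.88 and Camp, the antimicrobial cathelicidin, by at least 2.53. Hp, haptoglobin, was the 1 member higher in AML (1.66), and Csf3r, the G-CSF receptor, was not called (-0.48). The mean over all members with a probe set ran from 4.69 to 4.79 on the LSK arrays and from 3.27 to 3.35 on the AML arrays, and 3 members lay under the detection level on all LSK arrays against 8 on all AML arrays. Leaving out any 1 LSK array lowered the calls to 7, since genes seen on LSK arrays alone then had too few arrays to be tested. In bulk samples, fewer cells of a type and less RNA per cell cannot be told apart, and the part of mature cells carried through the sort was not tested.

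Monocyte and macrophage genes were divided. Of 33 tested, 6 were called higher in AML and 9 higher in LSK, with a median of -0.37. Fcgr3, an IgG receptor, read 6.71, 6.88 and 6.43 on the AML arrays and 4.45, 4.81 and 5.22 on the LSK arrays (1.85, SE 0.19). Tyrobp, the adaptor DAP12, differed by 1.69, Ms4a6c by 1.85 and the lectin receptor Clec4e by 1.43. All AML arrays stood above all LSK arrays in these 4. Csf1r, the M-CSF receptor, read 3.96, 3.49 and 3.66 against 5.80, 5.88 and 5.74 (-2.10, SE 0.12), high in LSK cells. Gpnmb (-3.27), the lectin Clec4n (-1.91) and lysozyme Lyz2 (-1.68) were also higher in LSK. Dendritic cell and MHC class II genes had 5 of 16 tested called higher in LSK and 0 higher in AML, among them the antigen-presenting chains H2-Aa (-2.44) and H2-Ab1 (-1.94) and the costimulator Cd80 (-1.69). MHC class I presentation genes had 0 calls among 14 tested, 6 of them past the adjusted p alone toward AML and 1 toward LSK, and the light chain B2m differed by 0.02.

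Myeloid transcription factors were called in both directions. Of 24 tested, 3 were called higher in AML and 4 higher in LSK, with a median of -0.04. Spi1, which encodes PU.1, read 6.53, 6.63 and 6.50 on the AML arrays and 6.42, 6.41 and 6.46 on the LSK arrays (0.12), and Cebpa read 5.69, 5.94 and 5.92 against 5.99, 6.04 and 6.03 (-0.17). Neither master factor was called. Gfi1 (2.48), Tfec (1.28) and Id1 (1.07) were higher in AML. Tcf4 (-1.53), the E protein of dendritic cells, and Bhlhe40 (-1.25) were higher in LSK. Irf8, the factor of monocytes and dendritic cells, was called on its brightest probe set (-1.47) but differed by -0.79 on the mean of its probe sets, under 2-fold.

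**Figure D4:**
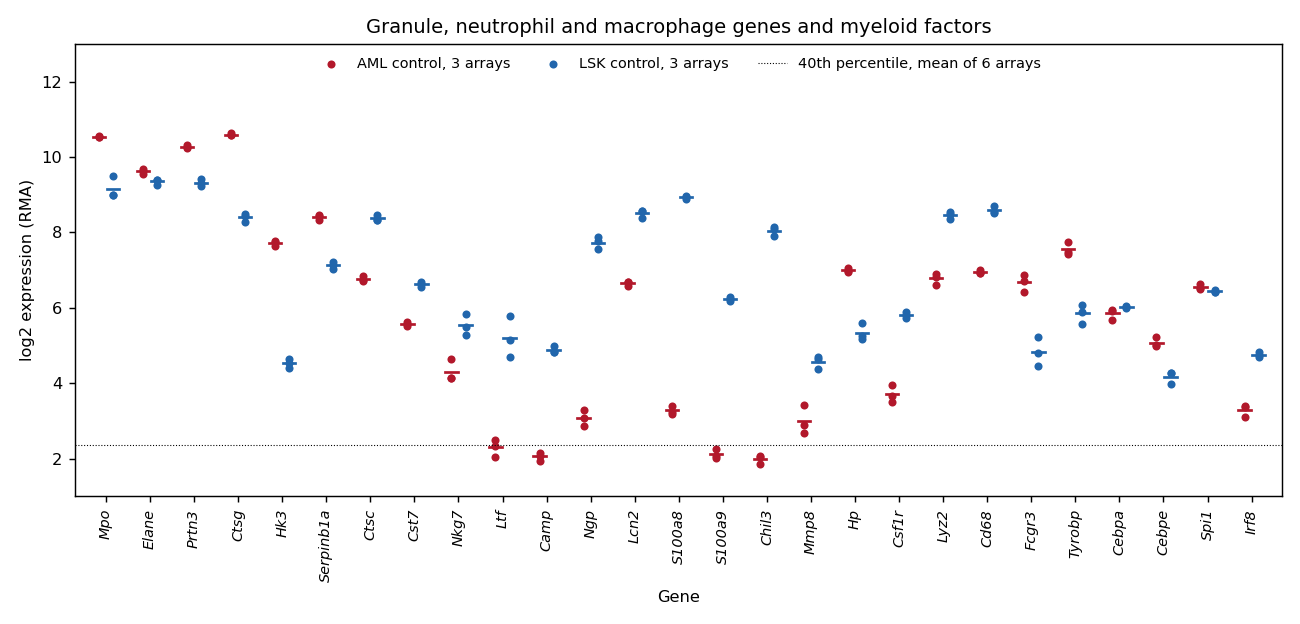
Log2 expression (y axis) of granule, neutrophil and macrophage genes and myeloid transcription factors (x axis) on the 3 AML control arrays (red) and the 3 LSK control arrays (blue). Dots are arrays, short bars group means, the dotted line the mean detection level; Mpo, Ctsg and Hk3 stand higher in red, Ngp, S100a8, S100a9 and Chil3 higher in blue with red at or near the detection level, and Spi1 and Cebpa lie together.

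Genes of the megakaryocyte lineage were called toward LSK cells alone. Of 19 megakaryocyte and platelet genes tested, 10 were called higher in LSK and 0 higher in AML, with a median of -1.17. F2r read 4.28, 3.80 and 4.20 on the AML arrays and 9.53, 9.68 and 9.78 on the LSK arrays (-5.57, SE 0.14). Plek, pleckstrin, read 4.22, 4.25 and 4.32 against 7.87, 7.78 and 7.89 (-3.59, SE 0.08). Both were high on LSK arrays without overlap. The channel Trpc6 was higher in LSK by at least 2.93, and Thbs1, thrombospondin, differed by -2.41. Itga2b, the platelet integrin CD41, missed the 2-fold rule at -0.97 and was called without LSK control replicate 1 (-1.07) or 2 (-1.05). F2rl2 (0.43) was not called.

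Of 9 mast cell, basophil and eosinophil genes tested, 6 were called higher in LSK and 1 higher in AML. Cpa3, a mast cell carboxypeptidase, read 3.27, 3.15 and 3.29 on the AML arrays and 6.60, 6.71 and 6.70 on the LSK arrays (-3.43, SE 0.08). The amine transporter Slc18a2 (-2.83) and the basophil protease Mcpt8 (-1.98) were also higher in LSK, and Prg2, eosinophil major basic protein, by at least 2.36. Hdc, which makes histamine, lay the other way at 1.22. Of 15 erythroid genes tested, Car2 was called and no other, and the transferrin receptor Tfrc (0.67) was not.

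Lymphoid priming genes, which come on in multipotent progenitors before lineage choice, had 6 of 12 tested called higher in LSK and 0 higher in AML, with a median of -1.004. The adaptor Lax1 read 2.70, 2.55 and 3.06 on the AML arrays and 6.10, 5.83 and 6.06 on the LSK arrays (-3.23, SE 0.14). Mef2c (-2.48) and Satb1 (-1.36) belong here too, while Ikzf1, Ikaros, was not called (-0.16). Dntt was called at -1.07, but its size was under 2-fold once AML arrays were set to the detection level (-0.92). B cell surface and signalling genes had 0 calls among 10 tested, with 3 past the adjusted p alone, although Cd79b (-0.98) passed 2-fold without AML control replicate 1 (-1.01) or LSK control replicate 2 (-1.09). T and NK cell genes had 1 call among 12, Gzmb, granzyme B, with 2.22, 2.30 and 2.36 against 5.81, 5.69 and 5.82 (-3.48). Cd3e, of the T cell receptor complex, stood near the detection level in both groups. Of 11 stromal and endothelial genes tested 1 was called, the adhesion molecule Pecam1, higher in AML (1.31).

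Immunoglobulin genes, whose products make up the B cell receptor, were called toward LSK cells alone. Ighm is a member of the lymphoid priming list, the others were in no list, and all were counted here after their values were seen. Of 20 immunoglobulin variable, joining and constant genes with a probe set, 11 were tested. Of these, 9 were called higher in LSK and 0 higher in AML, with a median of -2.73. Igkv4-70, Igkv8-30, Igkv9-120 and Iglv1 lay above the detection level on LSK arrays alone. They were thus tested only through the group where they are high, so the filter itself favours LSK in this count and median. With no filter, 10 of 20 were called higher in LSK and 0 higher in AML. Ighm, the mu heavy chain, read 6.01, 6.31 and 6.32 on the AML arrays and 9.43, 9.70 and 9.35 on the LSK arrays (-3.28, SE 0.13, limma adjusted p = 6.6e-07). The kappa segment Igkv15-103 read 4.97, 4.01 and 3.68 against 8.66, 8.75 and 7.66 (-4.14, SE 0.37). Every LSK array stood above every AML array in both, and the kappa segment varied more within a group. Igkv9-120 was higher in LSK by at least 2.93, while Igkv4-72 differed by -2.96, Igkv5-43 by -2.75 and the joining segment Igkj1 by -2.73. Igkv4-70 was higher by at least 1.27. Igkv8-30 (-1.11) and the lambda segment Iglv1 (-1.03) were under 2-fold once AML arrays were set to the detection level (-0.91 and -0.71). Leaving out any 1 LSK array lowered the calls to 5 of 7 tested, and leaving out 1 AML array to 7 or 8 of 11, with Igkv8-30 lost each time and Iglv1 without AML control replicate 1. Of 3 T cell receptor segments tested 0 were called with limma, and 0 had an unadjusted p under 0.05. The B cell list averaged 2.42 to 2.52 on the AML arrays and 2.59 to 2.63 on the LSK arrays over its 16 measured members, 6 of which lay under the detection level on all LSK arrays. Segments of one family are close copies and may share probes, and the part of B cells carried through the sort was not tested.

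In several gene families the called members lay on opposite sides, while those of the Gimap family lay on the LSK side alone. Of 7 Gimap genes, small GTPases of lymphocytes that sit side by side, 4 were called higher in LSK and 0 in AML. Gimap1 (-2.51) differed most, and Gimap3 (0.02) was not called. Of 7 Schlafen genes tested, Slfn4 was higher in AML (4.88) and Slfn2 higher in LSK (-2.96), and the rest were not called. Slfn4 read 7.82, 7.40 and 7.41 on the AML arrays and 2.43, 3.05 and 2.50 on the LSK arrays. Slfn2 read 3.22, 3.62 and 3.05 against 6.21, 6.21 and 6.33, so the neighbours were reversed without overlap in either. Among 10 C-type lectin and Klr receptors 2 were called higher in AML and 4 higher in LSK, led by Clec2i (2.80) and Clec2d (-3.32), 2 relatives in opposite directions. Among 7 Ms4a genes, Ms4a6b (2.24) and Ms4a6c (1.85) were higher in AML and Ms4a2 (-1.23) higher in LSK. Members of these families are alike in sequence, and probes may read a close relative as well.

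Cytokine receptors were mostly higher in LSK cells. Of 38 tested, 12 were called higher in LSK and 2 higher in AML, with a median of -0.45. Il1r1 read 2.75, 2.78 and 2.68 on the AML arrays and 7.09, 7.16 and 6.90 on the LSK arrays (-4.31, SE 0.09, limma adjusted p = 6.1e-08). Il2ra, the interleukin-2 receptor alpha chain, differed by -2.13. The receptors higher in AML were those of interferon gamma, Ifngr1 (1.21), and of interleukin-10, Il10rb (1.39). Below the receptors, 1 of 19 JAK-STAT and feedback genes was called (Socs2, as above), and Jak1 (-0.05) was not. Of the leukemia surface antigens and checkpoint ligands, 4 of 21 tested were called and all 4 were higher in LSK. Cd96, often described on human leukemia stem cells, was higher in LSK by at least 3.72, with 1.92, 2.21 and 2.16 on the AML arrays and 6.03, 6.05 and 6.12 on the LSK arrays. The inhibitory receptor Lilrb4a differed by -2.72, Havcr2, TIM-3, by -1.75 and Pilra by -1.34. Cd47, the signal that protects from phagocytosis, was not called (0.25).

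Chemokines and their receptors followed the same side, with 9 of 25 tested called higher in LSK, 2 higher in AML and a median of -0.77. The median was -0.40 with no filter on dim genes and -0.61 without LSK control replicate 1. Ccl3 read 4.03, 4.39 and 4.83 on the AML arrays and 7.97, 7.83 and 7.75 on the LSK arrays (-3.44, SE 0.18), and Ccl22 (-2.72), Ccl6 (-2.02) and Ccl17 (-1.82) also lay higher in LSK. The receptor Ccr1 (1.41) and its ligand Ccl9 (1.09) were both higher in AML. Cxcr4, the receptor that holds stem cells in the marrow, missed the 2-fold rule at -0.78. Among 28 integrin, selectin and adhesion genes 3 were called higher in AML and 4 higher in LSK. Ncam1, a neural adhesion molecule also seen on leukemias, read 6.64, 6.70 and 6.65 against 3.43, 3.75 and 3.96 (2.95, SE 0.13), and Itgb2, the leukocyte integrin beta chain, differed by 1.24. Itga6, a stem cell integrin, was higher in LSK (-2.15), as was Itgb3 (-1.92).

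Innate sensing genes had 2 of 25 called higher in AML and 3 higher in LSK. Tlr4, the endotoxin receptor, was higher in AML (1.32), while its partner Ly96, MD-2, was higher in LSK (-1.35). The related receptor Cd180 (-2.74) and its partner Ly86 (-1.16) were both higher in LSK. Interferon-stimulated genes had 2 of 33 called higher in AML and 4 higher in LSK. Oasl2 (-2.59) and its paralog Oasl1 (1.17) had opposite signs, as did Ifitm3 (-3.77) and the guanylate-binding protein Gbp3 (1.37). NF-kB and inflammatory genes had 2 calls of 22, both higher in LSK: Il12a (-1.27) and Il1b (-1.04), of which Il1b fell under 2-fold without AML control replicate 1 (-0.997), AML control replicate 2 (-0.999) or LSK control replicate 1 (-0.82). The oxidative burst subunits Cyba (1.29) and Ncf4 (1.37) were higher in AML, 2 of 8 tested.

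Metabolic and stress lists differed in how many members were called, beside 6.54% over all genes. Ribosome biogenesis (24 tested), the mitochondrial respiratory chain (23), cholesterol and fatty acid synthesis (16) and heat shock genes (9) had 0 calls each. At the adjusted p alone they had 9, 3, 6 and 1 genes, beside 33.2% over all genes. Unfolded protein and ATF4 response genes had 3 of 21 called higher in AML and 0 higher in LSK, with a median of 0.48, the highest list median after the Hoxa cluster. The ATF4 targets Asns, asparagine synthetase, and Chac1, a glutathione-degrading enzyme, differed by 1.10 and 1.40, and the ER quality control factor Sel1l by 1.11. Chac1 read 5.16, 5.78 and 5.77 on the AML arrays and 3.81, 4.14 and 4.57 on the LSK arrays without overlap. Of 18 glycolysis and hypoxia genes 2 were called higher in AML and 2 higher in LSK, with a median of 0.25. Slc16a3, the lactate exporter MCT4, was higher in AML (1.94) with Pfkp (1.07), while the glucose transporter Slc2a3 (-1.93) and Ndrg1 (-1.52) were higher in LSK. Ndrg1 was under 2-fold on the mean of its probe sets (-0.77). Gapdh was not called (-0.01).

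Of 17 aldehyde dehydrogenases and drug transporters 3 were called higher in LSK and 1 higher in AML, with a median of -0.08, and at the adjusted p alone 6 lay toward LSK and 7 toward AML. The drug efflux pumps Abcb1b (-3.49) and Abcg2 (-2.71), the latter a marker of side population stem cells, were higher in LSK, with 1.99, 2.16 and 2.64 on the AML arrays against 5.01, 4.94 and 4.95 on the LSK arrays for Abcg2. The sterol exporter Abcg1 (-1.25) lay on the same side. The aldehyde dehydrogenase Aldh3b1 was higher in AML (1.05), and just under 2-fold without AML control replicate 1 (0.999). Of 14 amino acid transporters 2 were called, both higher in LSK, Slc43a1 (-3.06) and Slc7a8 (-1.73). The list's median lay the other way (0.32), with 7 members past the adjusted p alone toward AML, among them Slc7a5 (0.31). Of 13 lipid handling genes 3 were called, all higher in LSK, with a median of -0.50: the lipase Lpl (-2.89), the lipoprotein receptor Vldlr (-1.19) and Abcg1.

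Prostaglandin genes were called in both directions. Beside Hpgd, which degrades prostaglandins and was higher in AML, 3 of 15 tested were called higher in LSK: the receptors of prostaglandin E2, Ptger3 (-1.88) and Ptger4 (-1.19), and Hpgds, prostaglandin D synthase (at least 1.64 higher). Ptger3 read 4.63, 4.30 and 4.34 on the AML arrays and 6.02, 6.33 and 6.55 on the LSK arrays. Hpgd and both receptors therefore differed without overlap and in opposite directions. Lta4h, of leukotriene synthesis, was not called (-0.08).

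Survival genes also split. Of 15 BCL2 family genes, Bcl2 was higher in LSK (-2.65) while the death-promoting Bid (1.22) and Pmaip1, NOXA (1.13), were higher in AML, and Mcl1 (0.23) was not called. Among 22 p53 genes Pmaip1 and Sesn2 (1.10) were higher in AML and Cdkn1a (-1.58) higher in LSK, so targets of the same factor lay on both sides. Among 10 members of the DNA methylation list 3 were called, all higher in LSK. They were the deaminase Apobec3 (-2.40), the de novo methyltransferase Dnmt3b (-1.70) and the dioxygenase Tet1 (-1.52). The list's median lay the other way (0.12), so the list as a whole was not shifted toward LSK. Dnmt3b read 4.59, 4.86 and 4.70 on the AML arrays and 6.18, 6.45 and 6.63 on the LSK arrays, and Dnmt1 was not called (0.12). Among 24 histone-modifying enzymes 1 was called (Kdm5b, 1.04), and it fell under 2-fold without LSK control replicate 2 (0.97) and with quantile normalization (0.995). Of 21 Polycomb genes 1 was called each way, Phc1 higher in LSK (-1.26) and Jarid2 higher in AML (1.03). Jarid2 fell under 2-fold without AML control replicate 2 (0.99) and with quantile normalization (0.98). Ezh2 was not called (-0.17).

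Of the developmental signalling lists, TGF-beta and BMP genes had the most calls. Of 22 TGF-beta and BMP genes 5 were called higher in LSK and 1 higher in AML. Bmpr2, a BMP receptor, read 4.46, 4.19 and 4.49 on the AML arrays and 8.07, 8.16 and 8.05 on the LSK arrays (-3.72, SE 0.10), and Eng (-3.29) and Tgfbr2 (-1.07) lay on the same side. Id1, a BMP target, lay on the other (1.07), and the shared mediator Smad4 was not called (-0.56). Smo, the hedgehog signal transducer, read 3.47, 3.51 and 3.75 against 7.62, 7.23 and 7.18 (-3.77, SE 0.14), and the hedgehog receptor Ptch1 differed by -1.29. Every LSK array was above every AML array in these. The Wnt receptor Fzd6 was higher in LSK by at least 2.68 and was the 1 call among 21 Wnt genes, while Ctnnb1, beta-catenin, was not called (-0.40). Matrix and mesenchymal genes had 6 of 19 called higher in LSK, led by S100a4 (-2.59) and the laminin chain Lamc1 (-2.14), and 1 higher in AML, galectin-1, Lgals1 (2.21).

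**Figure D5:**
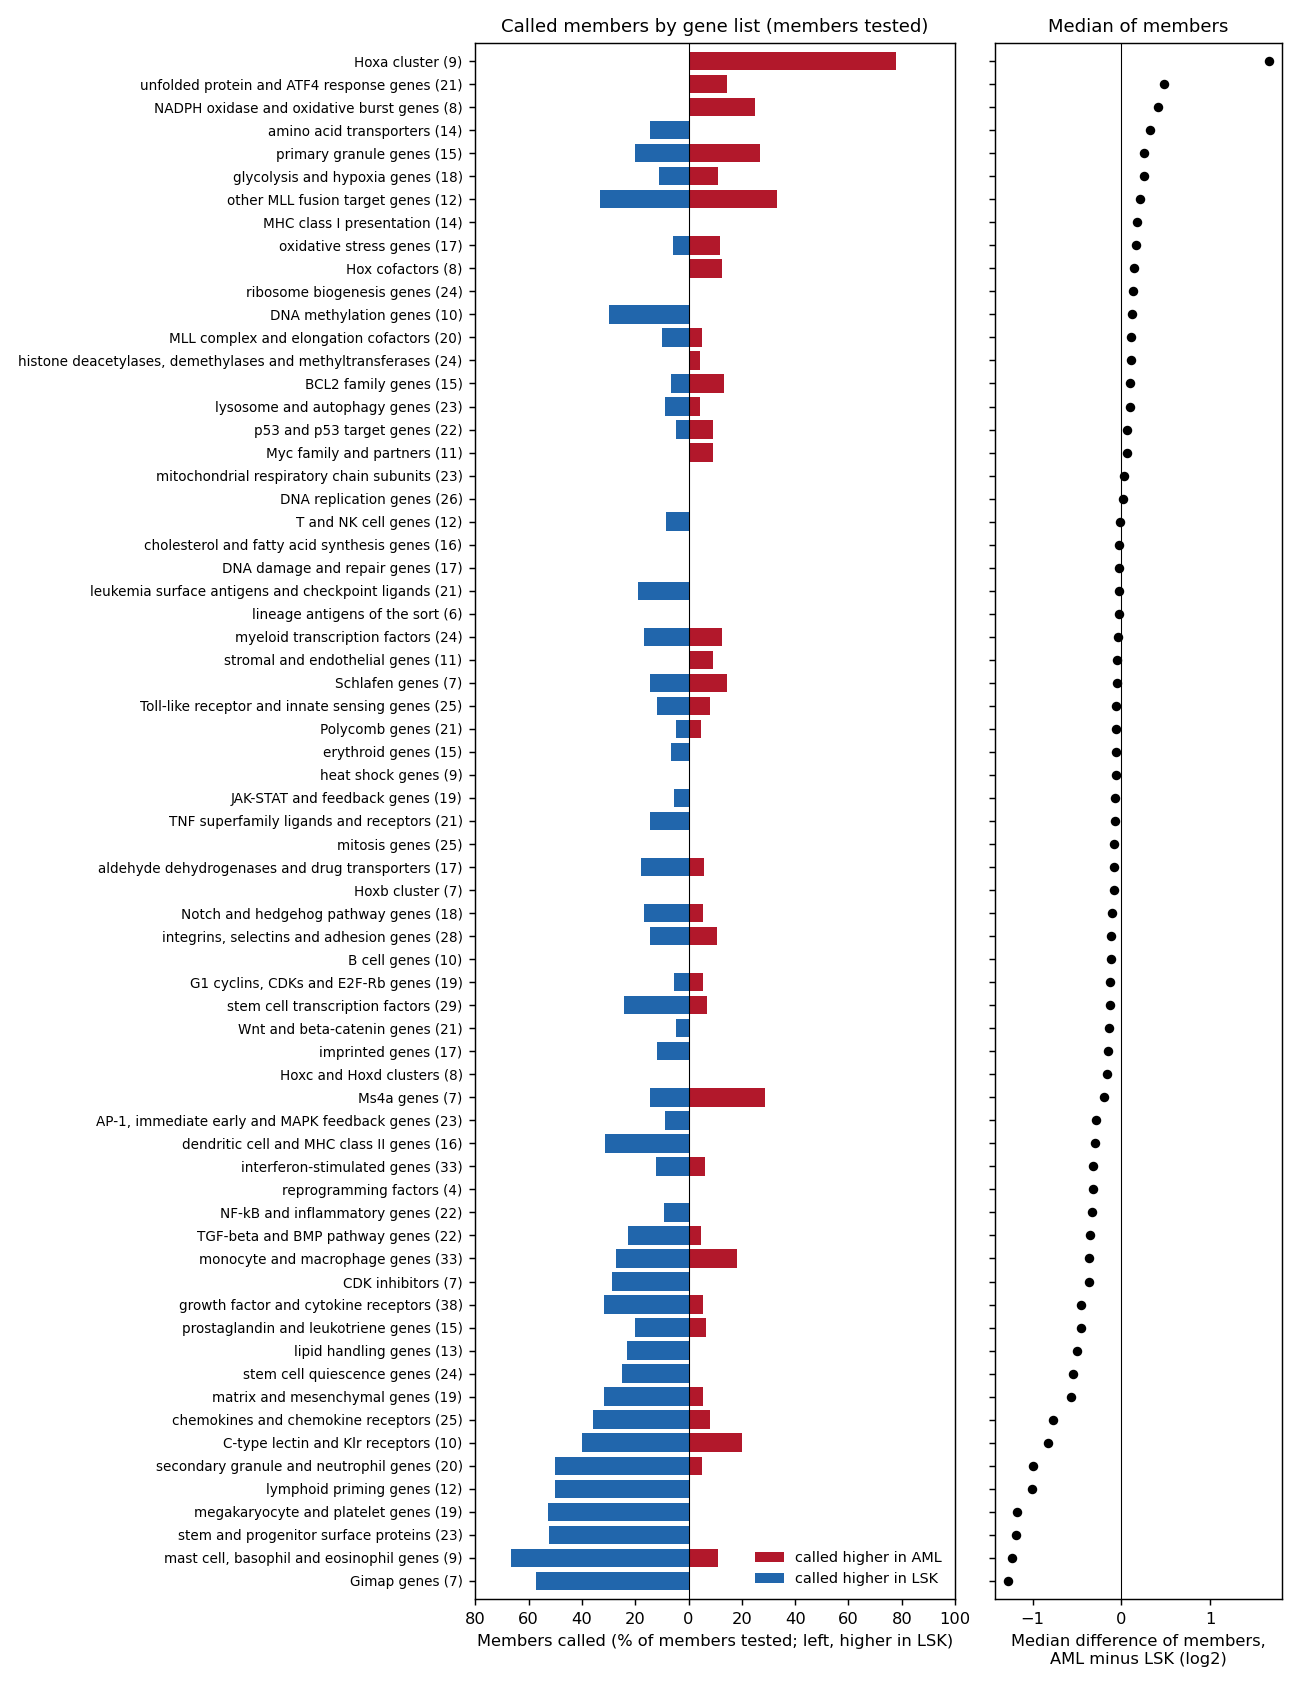
For each of the 67 gene lists (y axis, with the number of members tested), the left panel gives the share of tested members (%) called higher in AML (red, to the right) and called higher in LSK (blue, to the left), and the right panel gives the median difference of its tested members (log2, AML minus LSK). Lists are ordered by that median, from the Hoxa cluster at the top to the Gimap genes at the bottom; the proliferation and biosynthesis lists carry no bars.

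Some genes were detected in 1 cell type alone, above the detection level on all 3 of its arrays and under it on all 3 of the other. There were 61 such genes in AML cells, of which 14 were called, and 149 in LSK cells, of which 46 were called. With the level at the 60th percentile there were 110 and 242. Once the other group was set to the level, 9 of the 14 and 29 of the 46 were still at least 2-fold apart. In AML cells they included Plekhh2 (at least 3.47) and Il22ra2, the soluble interleukin-22 receptor, with 4.51, 4.57 and 4.42 on the AML arrays and 1.86, 1.73 and 2.22 on the LSK arrays (at least 2.15). Gpr141b stood just past 2-fold, while Slc1a3 (0.77), Glb1l2 (0.61), Prps1l1 (0.66) and Uggt2 (0.86) were called but under 2-fold at that bound. In LSK cells they included Chil3, S100a9, Cd96, Trpc6, Fzd6, Camp and Prg2 as given above, and Slc35f2 (at least 2.73 higher), Hook1 (at least 2.67) and Arap2 (at least 2.63).

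Called genes were spread over all 19 autosomes. Median differences by chromosome ran from -0.02 to 0.04. Chromosome 6 had the highest share of calls each way, 4.2% higher in AML and 7.18% higher in LSK. After the values were seen, neighbouring genes were read in chromosome order, and 14 runs of at least 3 tested genes were called the same way, 44 genes in all, 5 runs higher in AML and 9 higher in LSK. The longest was Hoxa5, Hoxa6, Hoxa7, Hoxa9 and Hoxa10 on chromosome 6. A second run lay at the other end of the same cluster and took in Hoxa3, Hoxa2 and the neighbour Skap2, a Src-associated adaptor, which read 8.996, 8.92 and 8.998 on the AML arrays and 7.41, 7.28 and 7.46 on the LSK arrays (1.59). The innate sensors Naip2 (3.10), Naip5 (1.72) and Naip6 (2.12) on chromosome 13 formed a separate run, and close copies such as these may share probes. Toward LSK cells the runs included Gimap6, Gimap1 and Gimap5, the group of Tmem176b, Tmem176a (-3.71) and Gpnmb, both on chromosome 6, and Med12l, Gpr171 and P2ry14 (-3.20) on chromosome 3. Another 2 runs on chromosome 6 were made up of the kappa segments Igkv5-43, Igkv8-30 and Igkj1, and of Igkv9-120 and Igkv15-103 with Il12rb2 (-1.36). Iglv1 lay in a run on chromosome 16 with B3gnt5 (-2.96) and Klhl6 (-1.65).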

How the data were processed

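RNA from sorted mouse cells was hybridised to 1-colour Affymetrix whole-transcript arrays. The authors made the deposited log2 expression values with RMA, as the submitters' processing notes say, and no RMA version or genome build was given in the sources used here. Of 41345 probe sets, 23521 carried 1 gene name in the probe table, 1814 carried several and 16010 were unlisted. Of the 23521, 23477 matched the RefSeq gene table. Probe sets with 1 gene were used, 22472 of them autosomal, and the brightest on average was kept for each of 21201 genes (1031 had several).

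The 2 groups were compared by limma 3.58.1 under R 4.3.3 (lmFit and eBayes, two-sided, Benjamini-Hochberg over 14404 genes) on the 6 arrays, with 4 residual degrees of freedom. The median standard error was 0.10. The number of arrays limits the precision. The step was tested on simulated data.

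The members, the 67 gene lists and the naming rule were chosen with earlier results of these data known, and lists carry no test. Always named are Kit, Kmt2a, Mllt3 and the reprogramming factors. The rule adds the 15 largest differences each way among called genes whose groups did not overlap. It adds up to 10 of the largest each way among called genes detected in 1 cell type. From each list it adds up to 4 called members each way and the 2 brightest uncalled ones. The rankings skipped predicted genes, small RNA genes and antigen receptor segments. Figure members, the genes at the ends of ranges, the runs of neighbours and the immunoglobulin genes were picked with their values known. Of 1414 list entries, 1295 had a probe set of their own.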

Additional observations from a re-analysis of the deposited data

How the results depend on the processing

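No gene called in the main comparison was called in the opposite direction under any alternative, and 0 named genes past the threshold changed sign. The main count was 942 genes. Leaving out 1 array at a time gave 901 to 952 calls in all, 367 to 387 higher in AML and 514 to 576 higher in LSK. Testing against a 2-fold difference (limma's treat) gave 438 calls, 167 higher in AML and 271 higher in LSK, and 83 named genes lost their call. Dropping the size rule gave 4778, 2513 and 2265. With the detection level at the 60th percentile, 110 genes were detected in AML alone and 242 in LSK alone. Centring, quantile normalization, no filter, a 60th percentile filter, a floor at the 40th percentile, the mean of a gene's probe sets, a trended robust prior, array weights and an adjusted p under 0.01 gave 913 to 947 calls. No effect shared by same-numbered arrays was seen, as their deviations from the group means correlated at 0.02, 0.04 and 0.00 (-0.0012). This check cannot show whether same-numbered samples were handled together. With the number as a block 943 genes were called, 942 of them shared. With 3 arrays a group and values near background for dim genes, small differences and sizes from a dim group have limited precision.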

Other observations

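Further lists held between 1 and 4 calls each, in shares above the 6.54% called over all genes. Of 17 oxidative stress genes, 2 were called higher in AML and 1 higher in LSK. Gpx3, a secreted glutathione peroxidase, read 5.02, 5.40 and 4.83 on the AML arrays and 3.82, 3.93 and 3.19 on the LSK arrays (1.44, SE 0.21), and Gsr, glutathione reductase, differed by 1.22. Nqo1, a quinone reductase, lay on the other side (-1.11). Of 23 lysosome and autophagy genes, Ctss, cathepsin S, was higher in LSK with 4.05, 4.49 and 4.10 against 6.82, 6.81 and 7.02 (-2.67, SE 0.13). Ctsh (-1.04) was also called higher in LSK, and fell under 2-fold without AML control replicate 2 (-0.999) or LSK control replicate 2 (-0.99). Hexa (1.05) was called higher in AML, and fell under 2-fold without LSK control replicate 1 (0.995).

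Of 23 immediate early and MAPK feedback genes 2 were called, both higher in LSK: the phosphatase Dusp5 (-1.31) and the early growth response factor Egr1 (-1.26). Of 11 Myc family genes the Myc antagonist Mxi1 was called, higher in AML with 6.59, 6.71 and 6.54 on the AML arrays and 5.41, 5.29 and 5.61 on the LSK arrays (1.18, SE 0.10). Of 21 TNF superfamily genes 3 were called, all higher in LSK: Cd27 (-2.88), Tnfrsf18 (-1.19) and Tnfsf10, TRAIL (-1.09), the last under 2-fold without LSK control replicate 1 (-0.96). Of 18 Notch and hedgehog genes 3 were called higher in LSK, Smo and Ptch1 among them, and 1 higher in AML. The Notch regulator Dtx4 was higher in AML (1.30), and the coactivator Maml2 higher in LSK (-1.04), the latter under 2-fold without AML control replicate 1 (-0.89) or LSK control replicate 1 (-0.96).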
